A study of Haemaphysalis flava with 2 samples.

Results

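The proteins that package DNA and the enzymes that mark and move them were examined in the midgut of Haemaphysalis flava, a hard tick that stores and digests its blood meal in this organ. Of the 65535 unigenes (assembled transcripts or transcript fragments) in the expression table, 111 had a protein description that contained histone, nucleosome, chromatin, chromodomain, polycomb, trithorax, SWI/SNF, bromodomain, heterochromatin or high mobility group. The description came from the non-redundant protein database (Nr) for 105 of them and from UniProt for the 6 with no Nr hit. The wording of the description alone chose the unigenes, and no measured value entered that rule. The choice was made with earlier results of these data known. Polyadenylated RNA was compared between fully engorged ticks (FE) and partially engorged ticks (PE), with 30 midguts dissected per state and 1 library for each. No treatment, genotype, sex or age is stated in the sources used here, nor is the number of midguts that went into each library.

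A nucleosome is DNA wrapped around a core of histones H2A, H2B, H3 and H4, with linker histone H1 at the entry and exit of the DNA. Acetyltransferases and methyltransferases write chemical marks on histone tails, deacetylases and demethylases remove them, bromodomains and chromodomains bind them, and remodeling enzymes use ATP to slide or evict nucleosomes. Polycomb and trithorax proteins, first known from Drosophila, keep genes silent or active through cell division. Most replication-dependent histone messages of animals end in a stem-loop in place of a poly(A) tail, and the libraries here were made from polyA RNA.

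Levels are given in RPKM (reads scaled to the length of the unigene and to the size of the library), so that unigenes of different length can be set side by side. A unigene entered the comparison with at least 1 RPKM in a library, and 104 of the 111 did. It was called higher or lower in FE when log2((FE RPKM + 1)/(PE RPKM + 1)) was at least 1 or at most -1 and the 95% exact interval of its read ratio excluded 1. Folds below are plain RPKM ratios with that interval, which covers counting error only. With 1 library per state there was no replicate check, so no test was run and no difference can be set against the spread between ticks.

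By this rule 40 of the 104 unigenes were higher in FE, 4 were lower and 60 were neither. The share called higher was 38.5%, against 25.7% of all 44982 unigenes that entered and 30.7% of those with a protein description. The share called lower was 3.85%, against 11.1% and 9.4%. Their median log2 ratio was 0.72, and the median over all unigenes was 0.36, a difference of 0.36. Scaling the libraries by TMM, a factor that assumes most unigenes do not differ, moved the median of all unigenes from 0.36 to 0.00 on the log2 scale. It left 26 of 103 chromatin unigenes higher (25.2%, against 18.4% of all) and 6 lower (5.83%, against 16%). Among all unigenes called, 69.8% were higher in FE before TMM scaling and 53.6% after it, while among the chromatin unigenes called the share went from 90.9% to 81.2%. Centring on the median of all unigenes gave 26 higher and 7 lower, with 78.8% of the calls higher. Counts per role below stand beside these shares of all unigenes, 25.7% higher and 11.1% lower, or 18.4% and 16% with TMM scaling. In a sample of a whole organ, fewer cells of a type and less RNA per cell cannot be told apart.

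**Figure D1:**
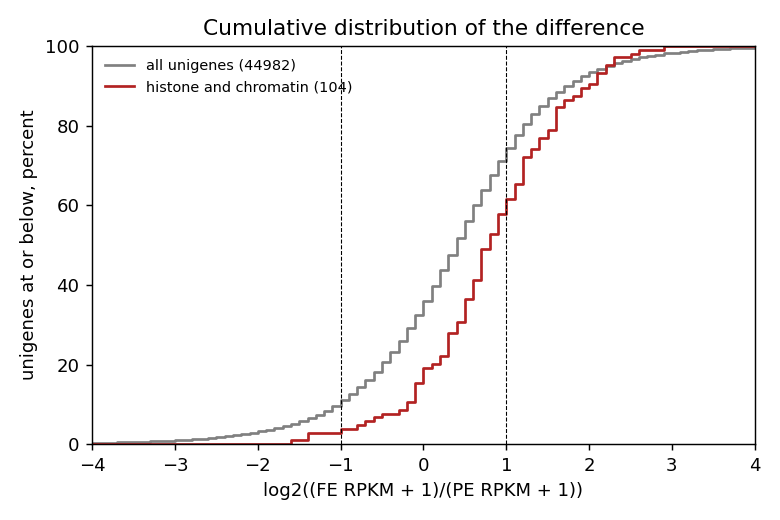
Cumulative share of unigenes (vertical axis, percent) at or below each log2((FE RPKM + 1)/(PE RPKM + 1)) (horizontal axis), for the 104 histone and chromatin unigenes (red) and for all 44982 unigenes (grey) that entered. Dashed lines mark -1 and 1, and the red curve lies to the right of the grey one up to about 2.

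The FE library held 41432770 reads in all and the PE library 50397332, as implied by the RPKM values, and the median chromatin unigene had 217 reads in the library where it was scarcer. The histone and chromatin unigenes took 0.739% of the listed reads in FE and 0.325% in PE. Midgut markers (cathepsins, legumain, ferritin and peritrophic proteins) were present, with 28 of 30 unigenes entering and a summed level of 1397 RPKM in FE and 2510 RPKM in PE. Markers of other tissues were present as well. Muscle markers summed to 3679 and 4503 RPKM (59 of 73 entered), salivary gland words to 5739 and 18234 RPKM (50 of 57), and ovary words to 342 and 154 RPKM (3 of 3). In the salivary gland list 1 unigene alone reached 9207 RPKM in PE, so the sum is no measure of that tissue. Nerve markers summed to 187 and 121 RPKM (18 of 25), and the 1 host blood unigene stood at 5.36 and 9.94 RPKM. The hemocyte words summed to 180 and 94 RPKM (9 of 12), but they also matched replication factor C unigenes. These are among the proliferation markers below, with Contig6821 at 55.5 against 21.9 RPKM and Contig260 at 26.9 against 5.47 RPKM. The sum therefore does not measure hemocytes. The sums and the single unigenes of a list could go opposite ways. Of the salivary gland unigenes 25 were higher in FE and 11 lower (median log2 ratio 0.99), of the muscle unigenes 8 and 5 (0.38), and of the midgut unigenes 12 and 10 (0.06). Nerve and ovary unigenes were higher in 11 and 1 cases and lower in none. The 4 higher calls of the hemocyte list include the 2 replication factor C unigenes just named, so they are not a count of hemocyte genes. The part of these other tissues in the chromatin results was not tested.

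H2B and H4 were the most abundant of these unigenes in FE, and H2B, H4 and H2A stood higher in the FE library, by ratios from 3.19 for H4 to 5.49 for H2A. Histone H2B (Contig1248), which pairs with H2A, stood at 1623 RPKM in FE and 363 in PE, for a ratio of 4.47 (4.38 to 4.55). Histone H4 (Contig580), the partner of H3, had 1484 and 465 RPKM, a ratio of 3.19 (3.14 to 3.25). Histone H2A (Contig22446) had 725 and 132 RPKM, a ratio of 5.49 (5.28 to 5.71). Among all unigenes ordered by level, H2B was at rank 304 in PE and rank 28 in FE, H4 at ranks 235 and 34, and H2A at ranks 782 and 101. The core histones did not stand in a fixed proportion, since the H4 level was 0.914 times that of H2B in FE and 1.28 times in PE. No unigene among the 111 was described as histone H3. A further 22 matching unigenes lie outside the expression table, so this does not show that H3 was absent from the midgut.

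H4 and H2A each had a scarcer namesake. A second H4 unigene (Contig12209), 2961 nucleotides long, matched the same H4 protein over all 103 residues at 100% identity, as Contig580 did. It stood at 9.19 RPKM in FE and 7.86 in PE, with a log2 ratio of 0.20. A second H2A unigene (Contig19794), 6671 nucleotides long, aligned at 98.3% identity to an H2A in Nr, while its UniProt description was a Pol-like protein, a word used for mobile elements. It stood at 88.3 and 38.4 RPKM, a ratio of 2.30 (2.25 to 2.35). No source used here says how the counting divided reads between unigenes with a shared protein, so the levels of such namesakes are uncertain.

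The variant and linker histones were scarce. An H2AX-like unigene (Contig63223), whose namesake in other animals marks DNA breaks when phosphorylated, had 25 reads in FE and 2 in PE (1.08 and 0.0709 RPKM), and with a log2 ratio of 0.96 it fell just short of the rule. A unigene described as histone (Contig6387), which the authors' KOG table (eukaryotic orthologous groups) assigns to H1, had 4.11 and 2.18 RPKM. Contig21519, a micronuclear linker histone polyprotein by its description, had 4.20 and 4.32 RPKM. In all, 4 of the 8 histone protein unigenes were higher in FE and none was lower, and with TMM scaling 3 were higher. Their summed level was 3939 RPKM in FE and 1013 RPKM in PE, almost all of it from H2B, H4 and H2A.

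**Figure D2:**
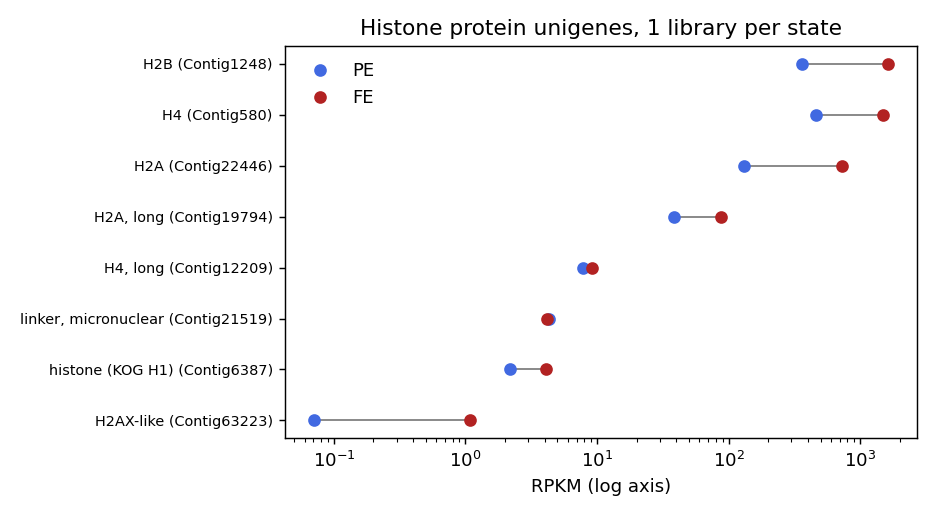
Level of the 8 histone protein unigenes in RPKM (log axis), 1 point for the PE library (blue) and 1 for the FE library (red), joined by a line. H2B, H4 and both H2A unigenes lie higher in FE, while the long H4 unigene (9.19 and 7.86 RPKM) and the micronuclear linker unigene (4.20 and 4.32 RPKM) have points that almost coincide.

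The histone chaperones, which carry histones to and from DNA, were close to the median of all unigenes or modestly above it. Nucleosome assembly protein NAP-1 (Contig954), a carrier of H2A and H2B, was abundant at 727 RPKM in FE and 451 in PE, a ratio of 1.61 (1.59 to 1.63) that did not reach the rule. A shorter NAP-1 unigene (Contig7417) had 58.5 and 28.7 RPKM and lay just inside the rule, with a log2 ratio of 1.00. The large subunit of chromatin assembly factor 1 (Contig20951), which deposits H3 and H4 behind the replication fork, had 15.1 and 11.1 RPKM. NAP-1 therefore differed less between the libraries than the H2A and H2B unigenes did. H2B, H4, NAP-1 and both H2A unigenes together held 66.6% of all reads of the 111 unigenes in FE and 55.9% in PE.

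Of the 8 unigenes for histone acetyltransferases and their partners, 3 were higher in FE and none was lower, with a median log2 ratio of 0.87. The type B catalytic subunit (Contig3021), which acetylates new H4 before it is deposited, was the most abundant at 53.5 and 27.3 RPKM, a log2 ratio of 0.95 and short of the rule. A MYST family enzyme (Contig8033) reached 47.9 RPKM in FE and 18.5 in PE, a ratio of 2.59 (2.43 to 2.76). Contig8032, which aligned to an overlapping stretch of the same protein, had 21.6 and 12.0 RPKM and was neither. A KAT8-like unigene (Contig9962), named for the enzyme that acetylates H4 in dosage compensation of Drosophila, had 45.5 and 12.9 RPKM, a ratio of 3.53 (3.11 to 4.02). Another unigene of the MYST family, Contig18280, had 5.70 and 5.85 RPKM. A subunit described by its part in dosage compensation and histone acetyltransferase complexes (Contig68668) had 14.8 and 6.24 RPKM and was higher, although its UniProt alignment covers only residues 28 to 51 of the protein. The SAGA associated factor SGF29, which in yeast and mammals binds methylated H3, had 9.65 and 7.29 RPKM in Contig21340 and 1.10 and 0.948 RPKM in Contig63120. With TMM scaling 1 of the 8, Contig9962, remained higher.

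The 13 deacetylase unigenes were called in both directions, with 4 higher in FE and 1 lower. Sirtuins, which use NAD to remove acyl groups, were higher in FE in 3 of 4 unigenes. The classical zinc-dependent deacetylases were higher in 1 of 9 and lower in 1 of 9. Among the sirtuins, Contig24756 was at 11.5 RPKM in FE and 1.98 in PE, a ratio of 5.83 (4.65 to 7.38). Contig38793 had 19.6 and 5.74 RPKM and Contig26591 had 16.9 and 7.30 RPKM, and both aligned to the same tick protein. All 3 were assigned to class IV sirtuins in the authors' KOG table. The most abundant sirtuin, Contig4539, which that table places with sirtuin 5, a mitochondrial enzyme in mammals, had 45.0 and 30.5 RPKM and was neither. With TMM scaling 2 of the 4 sirtuins were higher.

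The class I deacetylases, the catalytic core of several co-repressor complexes, were called in neither direction. The HDAC1-like Contig4919 had 26.9 and 30.0 RPKM, and Contig4920, described as deacetylase 1, 2 or 3, had 16.5 and 12.2 RPKM. The HDAC6-like unigenes, named for a mostly cytoplasmic enzyme that acts on tubulin in mammals, went in different directions. Contig6990 was lower in FE at 3.38 against 11 RPKM, a ratio of PE to FE of 3.26 (2.41 to 4.48). Contig6989, which aligned to nearly the same residues of the same protein (75 to 198, against 75 to 202), was higher at 15.1 against 6.84 RPKM. Summed, this pair came to 18.5 RPKM in FE and 17.8 RPKM in PE. Another HDAC6-like unigene (Contig11480) had 16.9 and 12.4 RPKM.

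Methyltransferases and their partners formed the largest class, with 9 of 20 unigenes higher in FE, none lower and a median log2 ratio of 0.84. Of the 8 unigenes described as PRDM9-like, 6 were higher and their median log2 ratio was 1.46. Of the other 12, 3 were higher and the median was 0.68. PRDM9 of mammals joins a methyltransferase domain to a row of C2H2 zinc fingers, and the authors' KOG table placed all 8 tick unigenes with transcription factors, as C2H2 zinc finger, homeobox SIP1 or BLIMP-1 entries. The largest ratios among them were those of Contig1985, at 14.3 against 1.18 RPKM (ratio 12.2, 8.58 to 17.8), Contig3379, at 45.2 against 9.98 RPKM, and Contig1987, at 30.6 against 6.80 RPKM. These 3 shared a hit and aligned to overlapping stretches between residues 773 and 933 of a protein of 1116 residues. The lowest, Contig19391, had 2.65 and 2.93 RPKM. Outside the 111, the 855 unigenes described as C2H2 zinc finger proteins that entered were higher in FE in 587 cases, with a median log2 ratio of 1.55.

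Among the other methyltransferases, ASH2 (Contig7930), a shared subunit of the complexes that methylate lysine 4 of H3, was the most abundant at 47.2 RPKM in FE and 16.0 in PE, a ratio of 2.95 (2.78 to 3.13). SUV39H2 (Contig8531), which places the heterochromatin mark on lysine 9 of H3, had 27.3 and 6.56 RPKM, a ratio of 4.16 (3.81 to 4.56). A SUV39H2-like unigene (Contig16010) and a SETDB1 unigene (Contig20939), named for an enzyme that acts on the same residue, had 5.66 against 3.21 and 8.30 against 4.73 RPKM and were neither. A short unigene described as trithorax (Contig66859) was higher, at 4.05 against 1.27 RPKM. The SET7 unigene (Contig18645), described as specific for lysine 20 of H4, had 6.28 and 6.97 RPKM, and the long KMT2-type unigene (Contig13682, UniProt description MLL3) had 4.40 and 4.88 RPKM. With TMM scaling ASH2 and SUV39H2 remained higher among the 12.

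Of the 6 demethylase unigenes 3 were higher in FE and none was lower. Lysine-specific demethylases, which use FAD, were higher in both unigenes, Contig13738 at 21.5 against 9.57 RPKM and Contig18871 at 7.24 against 2.90 RPKM. The JmjC enzymes, which use iron and 2-oxoglutarate, were less uniform. Contig46444, described as JmjC demethylase 2C, had 9.18 and 1.78 RPKM, a ratio of 5.17 (3.40 to 8.11) on 119 and 28 reads. Contig42371 aligned to the same protein over a longer stretch that includes it and had 12.4 and 10.6 RPKM. The other JmjC unigenes, Contig49156 of the 2C type and Contig12057 of the 1B type, had 3.31 against 2.90 and 9.42 against 5.42 RPKM. Both lysine-specific demethylases fell below the rule with TMM scaling, and Contig46444 did not.

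The SNF5 subunit of the SWI/SNF complex (SMARCB1), a non-catalytic core subunit, was described for 3 unigenes. Contig2241 was at 39.1 RPKM in FE and 5.81 in PE, a ratio of 6.73 (6.03 to 7.53), and Contig2302 had 36.5 and 6.67 RPKM, a ratio of 5.47 (4.88 to 6.13). Both aligned to the end of 1 insect protein (residues 195 to 369 and 188 to 369) and summed to 75.6 RPKM in FE and 12.5 RPKM in PE. The third, Contig2365, which aligned at 93.4% identity to another SNF5 protein, was on the other side with 4.57 and 7.91 RPKM, a log2 ratio of -0.68 that passed the rule for lower only with TMM scaling.

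The ISWI and Mi-2 ATPases were called neither higher nor lower. ISWI (Contig8058), which spaces nucleosomes, had 17.8 RPKM in FE and 21.2 in PE, and Mi-2 (Contig788), the helicase of a deacetylase complex, had 19.6 and 14.4 RPKM. NURF301 (Contig11660), the large partner of ISWI in the NURF complex of Drosophila, had 5.21 and 5.35 RPKM. The SMARCD1-like unigene of SWI/SNF (Contig12868) had 12.1 and 8.34 RPKM. Contig19927 and Contig18159, described as a SNF2 histone linker PHD RING helicase, aligned to separate stretches of 1 protein and were both higher, at 8.97 against 2.71 and 11.2 against 4.37 RPKM. In all 4 of the 9 remodeling unigenes were higher in FE, and these were 2 pairs that each shared a protein hit.

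**Figure D3:**
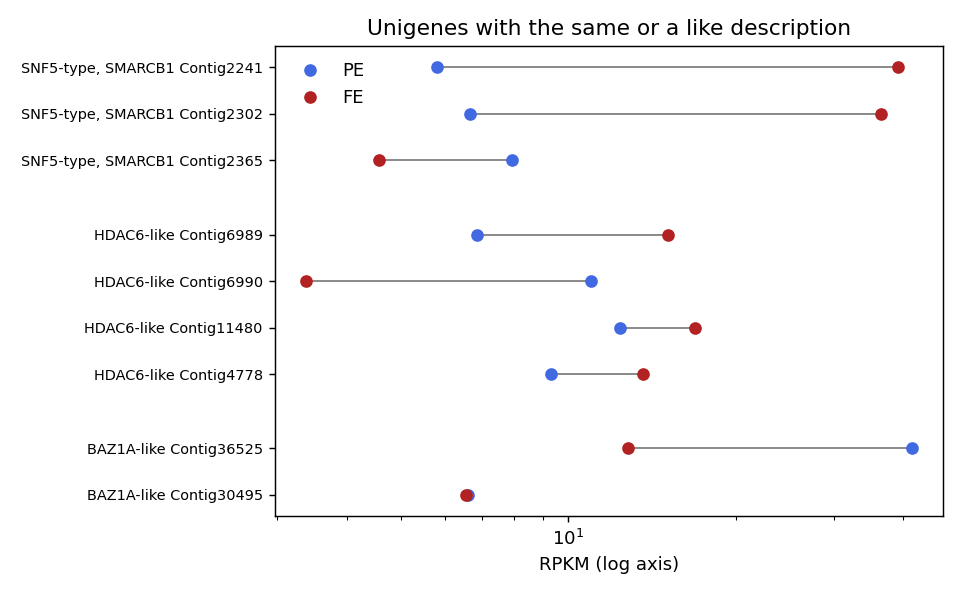
Level in RPKM (log axis) of unigenes with the same or a like description, 1 point for the PE library (blue) and 1 for the FE library (red). Among the SNF5 unigenes only Contig2365 lies lower in FE, and among the HDAC6-like unigenes only Contig6990 does. Of the BAZ1A-like unigenes 1 lies lower in FE (12.8 against 41.5 RPKM) while the points of the other almost coincide.

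Every one of the 7 polycomb and trithorax unigenes had the higher RPKM in FE, and 4 passed the rule. SUZ12, a subunit of the polycomb repressive complex that methylates lysine 27 of H3, was represented by fragments of 1 protein, Contig731 (20.6 against 7.32 RPKM) and Contig15984 (20.1 against 7.64 RPKM). They aligned to separate residues (187 to 628 and 7 to 124) and gave ratios of 2.82 (2.65 to 3.0) and 2.63 (2.23 to 3.12). The catalytic subunit of that complex, enhancer of zeste, lay outside the word rule and was higher in 4 of 4 unigenes, with summed levels of 92.8 and 38.4 RPKM and a median log2 ratio of 1.2. All 4 carried the same description, and whether they come from 1 gene was not tested. ASXL1, a partner of the enzyme that removes ubiquitin from H2A, had 9.82 and 2.63 RPKM in Contig18855, which was higher, and 11.2 and 5.19 RPKM in Contig33878, just outside the rule. Both aligned to overlapping stretches of 1 protein. The Scm-type unigenes, Contig29883 and Contig28094, had 6.32 against 2.78 and 5.82 against 3.08 RPKM. The 7th unigene, Contig4632, was described as osa-like in Nr and as zinc finger protein 92 in UniProt, and had 4.83 against 0.346 RPKM (172 and 15 reads). With TMM scaling 3 of the 7 polycomb and trithorax unigenes and 1 of the 4 enhancer of zeste unigenes were higher.

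Most readers of histone marks were bromodomain unigenes. The CDYL-like Contig11688, which carries a chromodomain description as the Mi-2 unigene does, was higher in FE at 12.0 against 3.74 RPKM, a ratio of 3.22 (2.84 to 3.65). None of the 10 bromodomain unigenes was higher in FE, and their median log2 ratio was 0.23, which became -0.12 with TMM scaling. BRD2 (Contig12494), a binder of acetylated H4, had 17.4 and 16.4 RPKM, and BRPF1 (Contig12517), a scaffold of MYST acetyltransferases, had 18.6 and 15.3 RPKM. The bromodomain unigene that was called, the BAZ1A-like Contig36525, was lower in FE at 12.8 against 41.5 RPKM, a ratio of PE to FE of 3.24 (2.93 to 3.59). BAZ1A, called ACF1 in Drosophila, is a partner of ISWI. Another BAZ1A-like unigene, Contig30495, had 6.55 and 6.60 RPKM, and Contig42775, with BAZ1A in its UniProt description, had 3.94 and 4.34 RPKM. Contig24219 (BAZ2B in UniProt) had 4.51 and 3.19 RPKM. The highest log2 ratios of the class, 0.88 in Contig3375 (12.0 against 6.08 RPKM) and 0.84 in Contig32607 (9.07 against 4.61 RPKM), came from fragments of 1 protein that the KOG table likens to a WASP-interacting protein.

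High mobility group proteins bend DNA and loosen nucleosomes, and 5 of their 8 unigenes were higher in FE. The most abundant, Contig17131, had 72.5 and 23.7 RPKM, a ratio of 3.06 (2.84 to 3.30). The HMGB1-like Contig22102 (dorsal switch protein in UniProt) had 16.4 and 9.11 RPKM, and First_Contig1442 had 7.70 and 4.86 RPKM. Contig50656 was lower at 4.14 against 9.77 RPKM, and its KOG entry is a COPII vesicle coat subunit. With TMM scaling 4 of the 8 were higher and 1 was lower.

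The 18 unigenes described as SETMAR-like were scarce and were called in both directions. SETMAR of primates is a methyltransferase fused to a mariner transposase, and 9 of the 18 carried a transposase or mariner description in UniProt and 4 carried SETMAR itself. Only 11 of the 18 entered, none above 9.40 RPKM, with a median log2 ratio of -0.26, 2 higher and 1 lower in FE. The most abundant were Contig35781, at 6.35 against 9.40 RPKM, and Contig34421, at 3.76 against 7.67 RPKM, which passed the rule for lower with TMM scaling. Contig59846 was lower in FE with 6 reads against 45 (0.476 and 2.94 RPKM), and Contig79186 had 0.675 and 1.8 RPKM. Contig10243 was higher with 5.04 against 1.81 RPKM. Contig37257 had 51 reads in FE and 0 in PE, 20.7-fold higher when a floor of 3 reads is set for the PE library, and Contig62253 had 1.98 and 0.909 RPKM. Outside the 111, 99 unigenes with DNA transposase descriptions entered, of which 23 were higher and 4 lower, with a median log2 ratio of 0.37. Without the unigenes with a mobile element description, the median of the rest was 0.81.

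**Figure D4:**
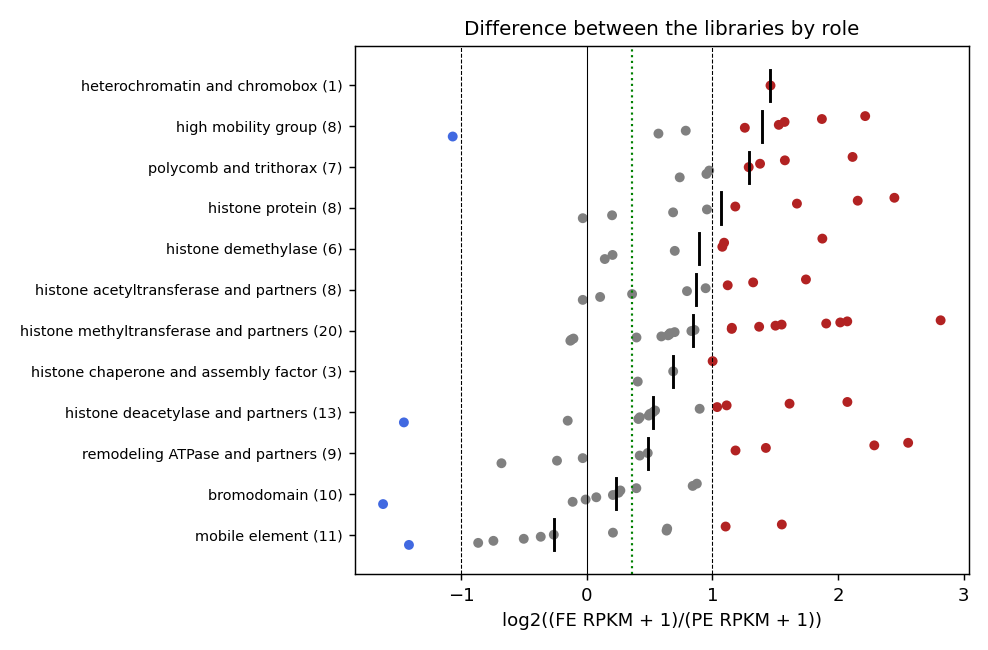
log2((FE RPKM + 1)/(PE RPKM + 1)) of the 104 entering unigenes by role, with the number per role in brackets; red points were called higher in FE, blue points lower and grey points neither. Black bars mark the median of each role, the green dotted line the median of all unigenes (0.36) and dashed lines -1 and 1; mobile element stands for the SETMAR-like unigenes.

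Abundance was uneven across the roles. Only 4 of the 111 unigenes reached 100 RPKM in a library (H2B, H4, H2A and NAP-1), and 52 reached 10 RPKM. Of the best protein hits, 46 were to ticks or mites, 41 to insects and 24 to other invertebrates. The unigenes fell on 83 distinct proteins, and 46 unigenes shared 18 of them. In 14 of the 18 the aligned stretches overlapped, and whether such unigenes come from 1 gene was not tested. The HDAC6-like pair was the only shared hit with calls in both directions. Keeping 1 unigene per protein left 28 of 79 higher and 3 lower.

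**Figure D5:**
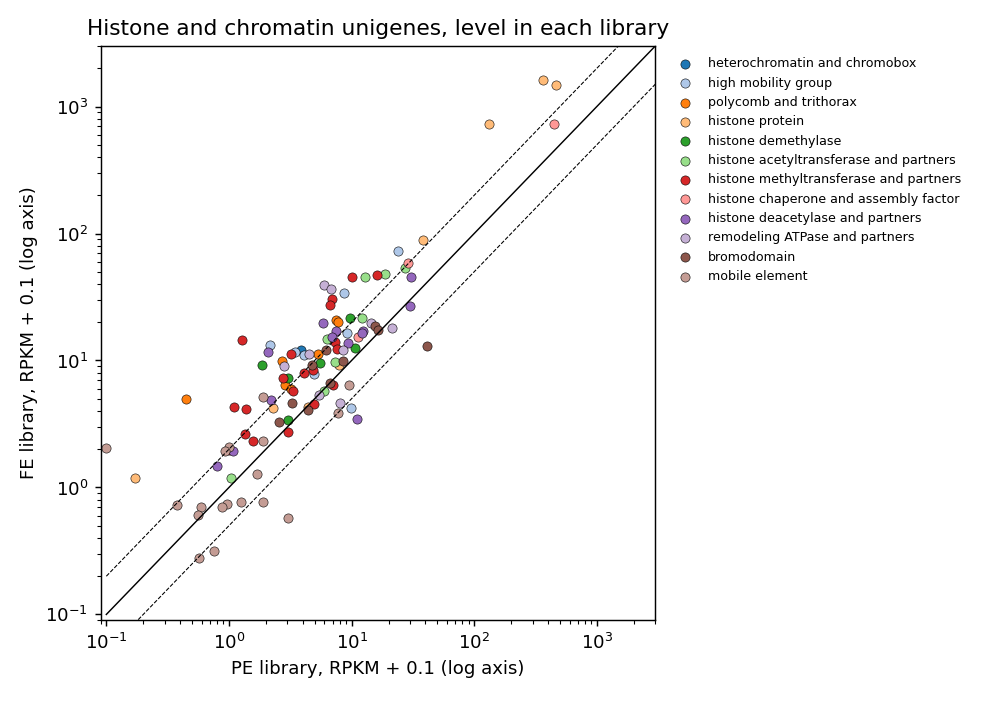
Level of the 111 unigenes in the FE library against the PE library, in RPKM + 0.1 on log axes, coloured by role. The solid line marks equal levels and dashed lines a 2-fold difference; H2B, H4, H2A and NAP-1 form the group above 100 RPKM, and the SETMAR-like unigenes lie at the low end on both sides of the line.

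Other chromatin genes lay outside the word rule. Of 73 unigenes chosen by other chromatin words, 68 entered, 19 were higher (27.9%) and 2 were lower, with a median log2 ratio of 0.49. The share called higher was thus close to the 25.7% of all unigenes, while the share called lower (2.94%) was below their 11.1%. Arginine methyltransferases were higher in 5 of 8 unigenes, and in 3 of 8 with TMM scaling. Of their PRMT1 unigenes, Contig1418 was higher at 94.3 against 28.4 RPKM, while the more abundant Contig4218 (102 against 95.3 RPKM) and Contig23167 (13.8 against 10.2 RPKM) were neither. The SPT16 subunit of FACT (Contig10529), which moves H2A and H2B aside for polymerases, had the higher level in PE, at 17.2 against 32.7 RPKM, and passed the rule for lower only with TMM scaling. Condensin unigenes, which compact chromosomes for mitosis, were higher in 3 of the 15 that entered. Importins, which carry histones among other cargo into the nucleus, were higher in 1 of 16, and 5 were lower with TMM scaling. A set of 66 unigenes matched the rule in UniProt but not in Nr. Of the 64 that entered, 17 were higher (26.6%, again close to all unigenes) and none was lower. An HP1 unigene among them (Contig83), the reader of methylated lysine 9 of H3, had 118 and 97.2 RPKM. KOG class B, which holds the core histones, also contained unigenes that the word rule did not choose. Of the 195 that entered, 35 were higher (17.9%, below the share of all unigenes) and 8 were lower (4.1%), with a median log2 ratio of 0.36. Without transposon and telomerase entries, 30 of 123 were higher (24.4%) and 7 were lower (5.69%), with a median of 0.55.

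Proliferation markers were described alongside, because replication-dependent histone genes are expressed in S phase. Of 46 that entered, 21 were higher in FE (45.7%) and none was lower, with a median log2 ratio of 0.99. Several of the unigenes called higher carried the same description, cyclin A, and the list also took in unigenes described as an MCM3-associated protein. These counts are thus of unigenes and not of separate genes. Values ranged widely within the list. Geminin (Contig2374), an inhibitor of replication licensing, had 165 against 29.2 RPKM and a cyclin A unigene (Contig5191) had 241 against 58.1 RPKM. The MCM helicase subunits differed less, with 72.3 against 56.2 RPKM for Contig4615 (MCM4), 20.8 against 27.8 for Contig10684 (MCM2) and 15.2 against 12.2 for First_Contig1911 (MCM5). Contig5952, described as Mcm2/3, had the higher level in PE, at 19.6 against 28.5 RPKM. DNA topoisomerase II unigenes lay on both sides, with 12.6 against 17.5 RPKM for Contig21360 and 16.1 against 7.59 for Contig26468. With TMM scaling 8 of the proliferation markers were higher and 1 was lower. Their part in the level of the histone unigenes was not tested.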

How the data were processed

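Reads were made with CASAVA 1.8, per the submitters' processing notes, from Trizol-extracted polyA RNA and TruSeq libraries, per the labels' protocols. No source used here names the assembler, aligner, counting tool, strand setting or search tools. The authors deposited raw read counts and RPKM values per unigene, per the file headers. The deposited table of the authors' comparison, with its ratio, p-value and false discovery rate columns, was checked against these values and gives no result here. The authors also deposited Nr and UniProt descriptions with the percent identity, and KOG entries with a score, of which the best-scoring was used.

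Library totals were recomputed from counts, RPKM and length, because the listed reads (35944321 in FE, 43831353 in PE) are part of each library. A further 22 matching unigenes of the annotation tables lie outside the expression table and were not analysed here. Log2 ratios used a pseudocount of 1 RPKM, which understates the ratio of low unigenes. Intervals are exact conditional binomial (Clopper-Pearson) intervals of 95%, and without molecular identifiers they do not account for PCR duplicates. A count of 0 was replaced by a floor of 3 reads for folds. TMM factors came from edgeR 4.0.16 and size factors from DESeq2 1.42.0, in R 4.3.3, used for scaling only. The other steps ran in Python 3.11.15 with scipy 1.17.1. The rule of size was tested on simulated data. Roles were assigned by words of the description.

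The unigenes and lists were chosen with earlier results of these data known. Named by rule were every histone protein, the 3 most abundant and the 3 highest and 3 lowest ratios in each other role, and the 10 most abundant overall. Some unigenes that the rule names are not reported here. Names beyond the rule, and those of genes outside the 111, were chosen after their values were seen, mostly to complete a shared hit or a role. Alternatives changed the scaling, pseudocount, filter, size rule and the set of unigenes.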

Additional observations from a re-analysis of the deposited data

How the results depend on the processing

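Of the 44 calls, 30 were kept with TMM, while 14 higher calls were lost and 2 lower calls were added. The number higher, 40 as reported, was 26 with TMM, with DESeq2 size factors and with centring, 20 with a pseudocount of 5 RPKM, and 62 with a rule of 1.5-fold. It was 20 of 61 among unigenes whose UniProt description also matched. The number lower, 4 as reported, was 7 with centring, 1 with a pseudocount of 5 RPKM and 7 with a rule of 1.5-fold. The difference between the median log2 ratios of chromatin unigenes and all unigenes, 0.36 as reported, was 0.49 with a pseudocount of 0.1 RPKM, 0.47 with no filter and 0.51 with a filter of 5 RPKM, but 0.29 with a pseudocount of 5 RPKM, 0.34 with 1 unigene per protein hit and 0.28 where UniProt also matched. No hit was to a vertebrate or bacterium, so leaving such hits out changed nothing. After the data were seen, leaving out the PRDM9-like and osa-like unigenes gave 33 higher and 4 lower, and leaving out the histone proteins gave 36 and 4. TMM without mobile element and zinc finger unigenes gave 19 higher of 82 (23.2%). The cause of these shifts was not tested. No paired analysis was possible because each state has 1 library. Without replicates, no statement reaches beyond these 2 libraries, and the 7 unigenes under 1 RPKM, all SETMAR-like, rest on few reads.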
